A study of Mus musculus with 16 samples.

Results

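Genes for ion channels and neurotransmitter receptors were followed across brains of mice of 4 genotypes, titled neonatal except for Cx32 null. The members are the genes whose array symbol belongs to the potassium, calcium, sodium, CLC chloride or TRP channel families, or to the glutamate, GABA-A, acetylcholine, glycine, purine or serotonin receptor families. Matching the symbols gave 64 genes on 84 of the 28704 spots. Of these, 49 genes had enough values to be tested, among 14292 transcripts. The matching used symbols only, but the families were picked with earlier results of these data known.

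The genotypes were Cx43 null, Cx43 heterozygous, Cx32 null and wild type, with 4 samples and 4 arrays each. Connexin 43, encoded by Gja1, forms gap junctions between astrocytes, and connexin 32, encoded by Gjb1, does so in oligodendrocytes and Schwann cells. The mutant mice are given as C57BL and the wild-type mice as C57BL/6j, so strain subline and genotype cannot be told apart. The sample titles say neonatal for every group but Cx32 null, where a difference in age could therefore not be told apart from genotype. Whole brain was used, and the labels name neither an allele nor an exact age, nor whether a sample was 1 animal or a pool. P-values therefore measure the spread between these samples, which may be technical. On every array brain cDNA was hybridised beside 1 common reference pooled from adult mouse organs, brain among them. Values are log2 ratios to that reference with each array's median set to 0. Folds assume that the deposited logarithms have base 2, and directions that brain is the numerator; neither is given in the labels. The direction is likely because a list of neuron genes lay above a list of liver, lung, kidney, stomach and heart genes on 16 of 16 arrays. In whole brain, fewer cells of a type and less RNA per cell cannot be told apart.

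Ion channels set how excitable a cell is. Voltage-gated sodium and calcium channels carry the depolarising currents, and potassium channels end them and hold the resting potential. Chloride channels and exchangers of the CLC family carry chloride across the membranes of cells and vesicles. Ionotropic glutamate, acetylcholine, GABA-A and some purine receptors are channels opened by a transmitter. Around birth many subunits are exchanged for others, and glia take up the potassium that active neurons release.

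Gja1 was checked first. Its log2 ratio was -0.60, -1.71, -2.10 and -2.92 in Cx43 null, -1.09, -1.27, -1.25 and -1.86 in Cx43 heterozygous and 0.13, 0.10, -0.07 and 0.27 in Cx32 null brain, against 2.47, 1.13, 1.48 and 1.17 in wild-type brain. All arrays of the mutant lines lay below all wild-type arrays, those of Cx32 null brain included. Gjb1 was not analysed here. Arrays had values on 21010 to 24819 spots. Wild-type replicate 1 stood apart: over all spots it correlated with the other wild-type arrays at 0.68 to 0.76, and its SD over the members was 1.5, against 0.81 to 1.16 on the other 15 arrays. The median SD between arrays of a group, over the members, was 0.24 in Cx43 null, 0.20 in Cx43 heterozygous, 0.20 in Cx32 null and 0.43 in wild-type brain. The 10 tested neuron markers, of 18 listed, had array medians of 1.90 to 2.19 in Cx43 null, 1.61 to 2.26 in Cx43 heterozygous and 1.71 to 1.97 in Cx32 null, against 1.46 to 2.05 in wild type. Of these markers, 1, 2 and 1 rose and 0, 2 and 2 fell in Cx43 null, Cx43 heterozygous and Cx32 null brain.

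Some markers of other cell types rose or fell too, on lists with few tested genes. Beside these marker counts, 4.37%, 13.5% and 13.1% of all transcripts rose in Cx43 null, Cx43 heterozygous and Cx32 null brain. In the same order 6.43%, 17.5% and 14.3% fell, at the threshold given below. Of 6 tested astrocyte and radial glia genes of 14 listed, 0, 1 and 0 rose and 1, 3 and 2 fell in Cx43 null, Cx43 heterozygous and Cx32 null brain. Their array medians were 0.33 to 0.96, 0.14 to 0.54 and 0.04 to 0.86 in those lines, against 0.81 to 1.74 in wild type, so the Cx43 heterozygous arrays lay below the wild-type arrays and the other lines overlapped them. Of 5 tested meningeal genes of 9 listed, 0, 1 and 0 rose and 2 fell in each line. Array medians of this list were -0.44 to 0.35 in Cx43 null and -0.19 to 0.30 in Cx32 null brain, both below the 0.39 to 1.28 of wild type, while Cx43 heterozygous brain reached 0.51. Of 5 tested red blood cell genes of 7 listed, none rose and 0, 3 and 2 fell. Their medians were -2.76 to -1.18, -2.28 to -1.67 and -1.96 to -1.54, against -1.55 to -1.04 in wild type, with no overlap for Cx43 heterozygous brain. Of 5 tested endothelial genes of 10 listed, 1 passed, a rise in Cx43 heterozygous brain, and of 2 tested oligodendrocyte genes of 10 listed, 1 fell in Cx43 heterozygous and 1 in Cx32 null brain. Of 4 tested choroid plexus genes of 8 listed, 0, 2 and 0 rose and 1 fell in each line. The part of these cell types in the changes of the members was not tested.

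Few members passed in Cx43 null brain and many in Cx43 heterozygous and Cx32 null brain. The threshold was a limma p under 0.05 after Benjamini-Hochberg adjustment over all transcripts. The fit pooled the spread of all groups for each transcript, and the members varied most between wild-type arrays. SEs and p-values against wild type may therefore be too small, and those between lines too large. In Cx43 null brain 4 members rose and 1 fell, which is 10.2% of the 49, where 10.8% of all transcripts passed, a share near the background. In Cx43 heterozygous brain 14 rose and 9 fell, which is 46.9%, where 31% of all transcripts passed. In Cx32 null brain 15 rose and 4 fell, which is 38.8%, where 27.3% of all transcripts passed. Members that rose made up 8.16% in Cx43 null, 28.6% in Cx43 heterozygous and 30.6% in Cx32 null brain, beside 4.37%, 13.5% and 13.1% of all transcripts. Members that fell made up 2.04%, 18.4% and 8.16%, beside 6.43%, 17.5% and 14.3%. The median log2 change of the 49 members was 0.19, 0.24 and 0.24 in the same order, beside 0.01, -0.02 and -0.03 over all transcripts. Without centring, the median over all transcripts in Cx43 heterozygous brain was 0.15, and 62.7% of its calls were rises, against 43.6% after centring. All 3 lines were compared with the same 4 wild-type arrays, so their lists are not independent of each other.

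Leaving out single arrays moved the counts in Cx43 null and Cx32 null brain by over 1.5 times. There were 8 calls in Cx43 null brain without its replicate 1, 0 without replicate 2, 0 without replicate 3 and 1 without replicate 4. The share of all transcripts that passed in these fits was 17.1%, 3.55%, 0.798% and 4.09%. There was 1 member without wild-type replicate 1, 1 without wild-type replicate 2 and 10 without wild-type replicate 4. Here 5.79%, 3.39% and 20.9% of all transcripts passed. The member counts were highest in the fits where the share over all transcripts was highest. Trpv2, the most stable of the 5, was lost without Cx43 null replicate 2 or 3, and the other 4 calls were each lost without Cx43 null replicate 2, 3 or 4 and without wild-type replicate 1, 2 or 3. In Cx43 heterozygous brain the count stayed between 17 and 23, where 22.3% to 35.6% of all transcripts passed. Of the 23 members, 14 passed whichever array was left out. In Cx32 null brain the count ran from 9 to 22, where 19.1% to 32% of all transcripts passed. It was 9 without Cx32 null replicate 2, and 9 of the 19 members passed throughout. For neither line was the share of all called transcripts that passed throughout counted.

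**Figure D1:**
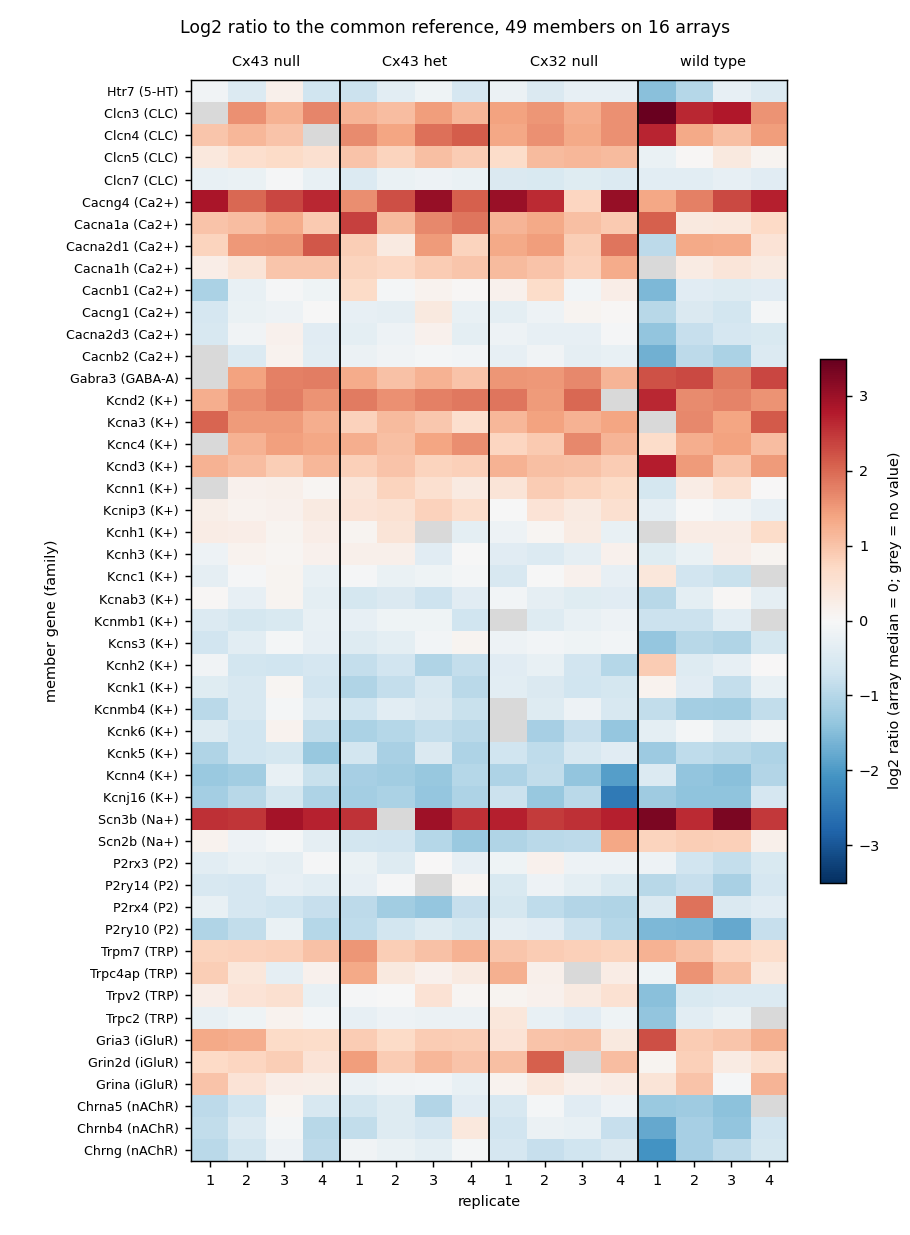
Log2 ratio of brain to the common reference for the 49 tested members (rows, with their family) on the 16 arrays (columns, Cx43 null, Cx43 heterozygous, Cx32 null and wild type from left to right); red is above and blue below the array median, and grey marks a missing value. The strongest red and blue of many rows lie in the column of wild-type replicate 1, whose SD over the members was 1.5.

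Trpv2, Chrna5, Kcns3 and Cacnb2 rose in all 3 lines, and Clcn3 fell in all 3. How many of all transcripts passed in every line was not counted, so no background share stands beside these 5 of 49. The proximal promoters of the 5 genes are printed here because they are the only members past the threshold in every line. The sequences come from RefSeq on GRCm38.p6, from 250 bases before the first listed transcription start to 50 after it, 5′ to 3′ on the gene's strand. Capitals mark a GC box, searched as GGGCGG on either strand (CCGCCC on the other).
Trpv2 (chr11:62574236-62574535, plus strand): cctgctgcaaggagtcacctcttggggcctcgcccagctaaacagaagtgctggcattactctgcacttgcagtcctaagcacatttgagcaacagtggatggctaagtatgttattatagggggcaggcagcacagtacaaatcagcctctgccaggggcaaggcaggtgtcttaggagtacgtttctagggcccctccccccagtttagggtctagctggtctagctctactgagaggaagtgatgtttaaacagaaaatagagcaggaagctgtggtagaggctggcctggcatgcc
Chrna5 (chr9:54980630-54980929, plus strand): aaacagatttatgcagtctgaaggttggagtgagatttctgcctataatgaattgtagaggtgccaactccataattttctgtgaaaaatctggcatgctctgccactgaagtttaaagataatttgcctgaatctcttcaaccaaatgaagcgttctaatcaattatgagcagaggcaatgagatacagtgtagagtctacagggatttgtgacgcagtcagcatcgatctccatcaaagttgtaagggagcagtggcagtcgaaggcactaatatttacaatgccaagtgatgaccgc
Kcns3 (chr12:11150793-11151092, minus strand): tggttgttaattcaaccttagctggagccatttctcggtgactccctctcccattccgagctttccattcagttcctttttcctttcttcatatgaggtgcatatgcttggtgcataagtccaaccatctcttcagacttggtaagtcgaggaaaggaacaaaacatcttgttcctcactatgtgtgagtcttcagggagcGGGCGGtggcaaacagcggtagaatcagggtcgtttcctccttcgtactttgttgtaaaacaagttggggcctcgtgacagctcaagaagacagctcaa
Cacnb2 (chr2:14604056-14604355, plus strand): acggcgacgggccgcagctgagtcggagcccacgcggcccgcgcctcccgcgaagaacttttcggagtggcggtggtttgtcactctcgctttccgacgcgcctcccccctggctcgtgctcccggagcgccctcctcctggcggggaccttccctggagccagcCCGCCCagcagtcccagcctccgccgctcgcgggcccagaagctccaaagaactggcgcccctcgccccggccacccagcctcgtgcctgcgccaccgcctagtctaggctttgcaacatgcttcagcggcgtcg
Clcn3 (chr8:60983262-60983561, minus strand): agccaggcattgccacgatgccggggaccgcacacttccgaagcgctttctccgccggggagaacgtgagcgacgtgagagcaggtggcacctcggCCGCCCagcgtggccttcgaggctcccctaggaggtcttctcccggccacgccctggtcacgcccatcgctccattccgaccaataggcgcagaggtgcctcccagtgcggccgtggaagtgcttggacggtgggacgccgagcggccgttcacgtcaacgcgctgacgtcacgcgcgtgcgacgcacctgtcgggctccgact
A promoter was matched for 51 of the 64 members. A GC box lay in 24 of those 51 (47.1%) and in 35.9% of all 27025 promoters of the same length. Of the 5 printed, Kcns3, Cacnb2 and Clcn3 held 1 each, and Trpv2 and Chrna5 held none. GC content was 53.0% for Trpv2, 41.3% for Chrna5, 47.0% for Kcns3, 71.7% for Cacnb2 and 68.7% for Clcn3, beside a median of 60.3% over the members and 52.7% over all promoters. The TATA box TATAAA, searched on both strands, was in 0 of the 5 printed, in 5 of the 51 member promoters (9.8%) and in 14.2% of all. The pentamer CCAAT, searched likewise, was in that of Clcn3, in 9 of the 51 (17.6%) and in 37.9% of all. These letter matches are descriptions, and no binding was measured.

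Trpv2 is a calcium-permeable cation channel of the vanilloid TRP group, known in rodents from sensory neurons. Its log2 ratio was 0.23, 0.49, 0.57 and -0.25 in Cx43 null, -0.05, -0.01, 0.50 and 0.08 in Cx43 heterozygous and 0.09, 0.15, 0.32 and 0.53 in Cx32 null brain, against -1.46, -0.54, -0.48 and -0.48 in wild-type brain. All 12 mutant arrays lay above all 4 wild-type arrays. Cx43 null brain exceeded wild type 2.00-fold (a log2 change of 1.00 with an SE of 0.24, adjusted p = 0.0196). Cx43 heterozygous brain exceeded it 1.83-fold (0.87 ± 0.24, adjusted p = 0.0110), and Cx32 null brain 2.02-fold (1.01 ± 0.24, adjusted p = 0.00600). Both of its spots rose in each line on average. The call in Cx43 null brain was lost without Cx43 null replicate 2 (adjusted p = 0.0577) or replicate 3 (adjusted p = 0.0812). The other TRP members did not pass: Trpm7, a channel fused to a kinase, had changes of -0.04, 0.26 and -0.04, and its 4 spots disagreed in sign in each line. Trpc2, the channel of the vomeronasal organ, had 0.58, 0.44 and 0.57 with overlapping groups. Trpc4ap, which matches the family pattern but encodes a channel-associated protein, had -0.44, -0.18 and -0.15.

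All 3 tested acetylcholine receptor subunits had group means below the array median in every genotype. All 3 rose in Cx43 heterozygous brain, where 13.5% of all transcripts rose. Chrna5 is an accessory subunit of neuronal nicotinic receptors. Arrays gave Chrna5 log2 ratios of -0.92, -0.71, 0.06 and -0.55 in Cx43 null, -0.64, -0.46, -1.03 and -0.40 in Cx43 heterozygous and -0.55, -0.08, -0.41 and -0.18 in Cx32 null brain, against -1.29, -1.25 and -1.44 on the 3 wild-type arrays with a value. The mutant arrays did not overlap the wild-type arrays. The rise was 0.80 ± 0.23 SE in Cx43 null (adjusted p = 0.0381), 0.70 ± 0.23 in Cx43 heterozygous (adjusted p = 0.0292) and 1.02 ± 0.23 in Cx32 null brain (adjusted p = 0.00532). The last of these passed whichever array was left out, and the call in Cx43 heterozygous brain was lost without its replicate 1, 2 or 4 or wild-type replicate 2 or 3. Chrnb4, which pairs with alpha subunits in autonomic ganglia and habenula, rose by 0.88 ± 0.28 in Cx43 heterozygous (adjusted p = 0.0254) and 0.77 ± 0.28 in Cx32 null brain (adjusted p = 0.0493), with overlapping groups in both. It measured 0.67 ± 0.28 in Cx43 null brain (adjusted p = 0.118). The call in Cx43 heterozygous brain was lost without its replicate 4 or wild-type replicate 1 or 3, and that in Cx32 null brain on leaving out any single Cx32 null array or wild-type replicate 1, 2 or 3.

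Chrng, the gamma subunit of the fetal muscle acetylcholine receptor, rose in Cx43 heterozygous brain. Its log2 ratio there was -0.12, -0.23, -0.33 and -0.07, against -2.09, -1.17, -0.92 and -0.62 in wild-type brain, so the groups did not overlap. The rise was 2.02-fold (1.01 ± 0.25 SE, adjusted p = 0.00685). It was 1.76 on 1 of its spots and 0.50 on the other, and with the better filled spot alone the gene did not pass (adjusted p = 0.115). Changes were 0.52 ± 0.25 in Cx43 null (adjusted p = 0.165) and 0.55 ± 0.25 in Cx32 null brain (adjusted p = 0.108). Of 7 tested skeletal muscle genes of 13 listed, none rose in any line and 1, 2 and 2 fell in Cx43 null, Cx43 heterozygous and Cx32 null brain. Of all transcripts, 4.37%, 13.5% and 13.1% rose and 6.43%, 17.5% and 14.3% fell in the same order. Array medians of the muscle genes were -2.26 to -0.67, -1.86 to -1.08 and -2.34 to -1.5 in those lines, against -1.60 to -1.23 in wild type.

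All calls among the calcium channel genes were rises. Of 8 tested members, 1 rose in Cx43 null, 4 in Cx43 heterozygous and 4 in Cx32 null brain, and none fell. The share of all transcripts that rose was 4.37%, 13.5% and 13.1%. Cacnb2 and Cacnb1 encode the cytoplasmic beta subunits that bring the pore to the membrane. The log2 ratio of Cacnb2 was -0.48, 0.11 and -0.36 on the 3 Cx43 null arrays with a value, -0.20, -0.12, -0.08 and -0.10 in Cx43 heterozygous and -0.28, -0.13, -0.31 and -0.25 in Cx32 null brain, against -1.68, -0.92, -1.11 and -0.49 in wild-type brain. The mutant arrays lay above the wild-type arrays, Cx43 null replicate 2 only just. The rise was 0.81 ± 0.23 SE in Cx43 null (adjusted p = 0.0379), 0.93 ± 0.21 in Cx43 heterozygous (adjusted p = 0.00478) and 0.81 ± 0.21 in Cx32 null brain (adjusted p = 0.0121). The calls in Cx43 heterozygous and Cx32 null brain passed under all alternatives.

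Cacnb1 rose in Cx43 heterozygous (0.89 ± 0.28 SE, adjusted p = 0.0247) and Cx32 null brain (0.94 ± 0.28, adjusted p = 0.0233). Without wild-type replicate 1, which stood at -1.58 where the other wild-type arrays lay between -0.45 and -0.39, the changes were 0.60 (adjusted p = 0.0747) and 0.64 (adjusted p = 0.0655). The calls were also lost without Cx43 heterozygous replicate 1 and without Cx32 null replicate 2. Cacna2d3, an extracellular auxiliary subunit, rose by 0.64 ± 0.21 in Cx43 heterozygous (adjusted p = 0.0273) and 0.62 ± 0.21 in Cx32 null brain (adjusted p = 0.0352). Neither call passed without wild-type replicate 1 or 2, the first was also lost without Cx43 heterozygous replicate 2 or 3, and the second without any of the Cx32 null arrays.

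Among the pore-forming calcium channel genes, Cacna1h and Cacna1a each rose in 1 line. Cacna1h encodes a low-voltage-activated T-type channel. Cacna1h measured 1.11, 1.01, 0.82 and 1.30 in Cx32 null brain, against 0.30, 0.42 and 0.32 on the 3 wild-type arrays with a value, with no overlap. The rise was 0.71 ± 0.20 SE (adjusted p = 0.0165). It was 0.49 ± 0.20 in Cx43 heterozygous (adjusted p = 0.0711) and 0.31 ± 0.20 in Cx43 null brain (adjusted p = 0.297).

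Cacna1a encodes the P/Q-type channel of presynaptic endings and Purkinje cells. Cacna1a measured 2.40, 1.10, 1.69 and 1.88 in Cx43 heterozygous brain, against 2.09, 0.35, 0.38 and 0.71 in wild-type brain, and the groups overlapped through wild-type replicate 1. The rise was 0.89 ± 0.32 SE (adjusted p = 0.0428), and 1.29 without that array (adjusted p = 0.00125). It was lost without Cx43 heterozygous replicate 1 (0.67, adjusted p = 0.138), replicate 3 or replicate 4, and without wild-type replicate 2, 3 or 4. Cacng4, an auxiliary subunit of AMPA receptors by function, had the highest mean ratio of the family, 2.28 over all arrays, and changes of 0.43, 0.22 and 0.32 that did not pass. Cacna2d1, the subunit that binds gabapentin, had 0.96 ± 0.41 in Cx43 null (adjusted p = 0.124), 0.32 ± 0.41 in Cx43 heterozygous (adjusted p = 0.569) and 0.83 ± 0.41 in Cx32 null brain (adjusted p = 0.137).

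**Figure D2:**
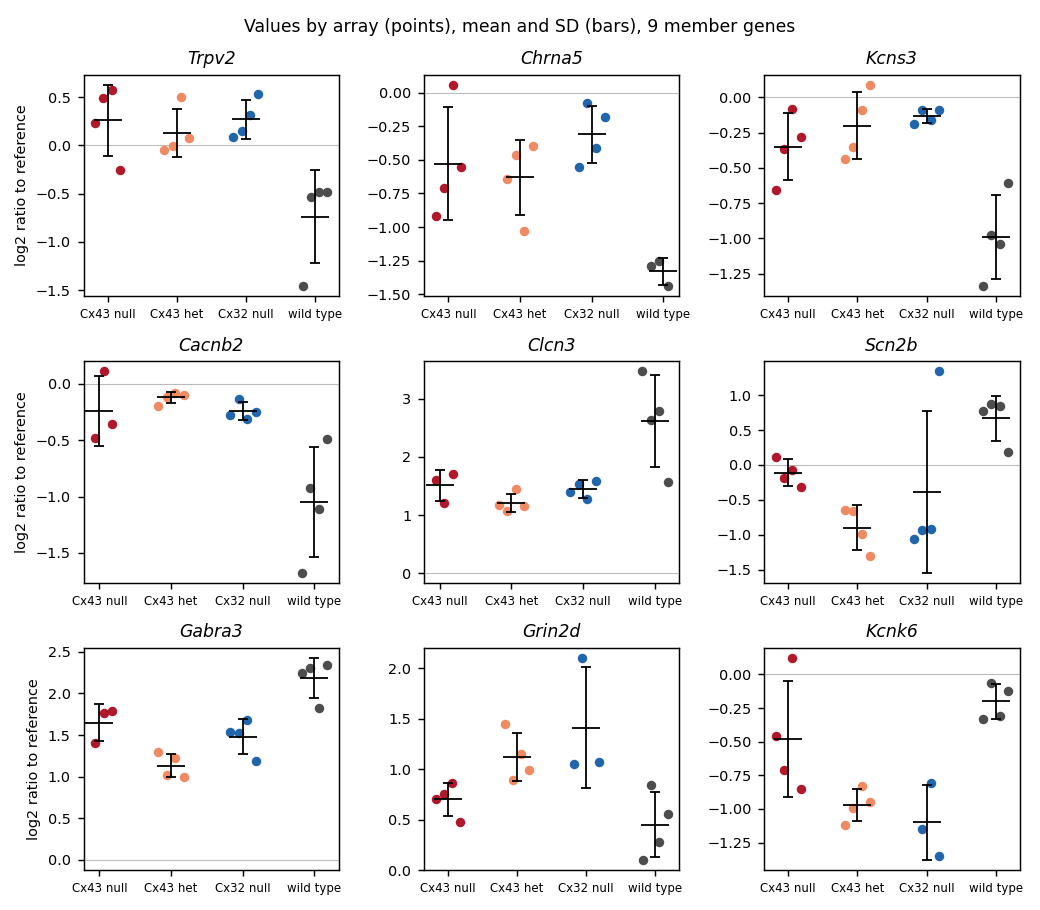
Log2 ratio to the common reference on each array (points) with the group mean and SD (bars) for 9 members, with Cx43 null, Cx43 heterozygous, Cx32 null and wild type from left to right in each panel. Trpv2 and Chrna5 have all mutant points above all wild-type points, and for Scn2b 1 Cx32 null array stands at 1.34, above the others of its group.

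Clcn3 encodes a chloride and proton exchanger of endosomes and synaptic vesicles, and it fell in all 3 lines. Clcn3 measured 1.61, 1.21 and 1.71 on the 3 Cx43 null arrays with a value, 1.18, 1.07, 1.45 and 1.16 in Cx43 heterozygous and 1.40, 1.54, 1.27 and 1.59 in Cx32 null brain, against 3.47, 2.64, 2.79 and 1.57 in wild-type brain. The Cx43 heterozygous arrays lay below all wild-type arrays, and the other lines overlapped them at wild-type replicate 4. Cx43 null brain lay 2.16-fold below wild type (-1.11 ± 0.31 SE, adjusted p = 0.0350). Cx43 heterozygous brain lay 2.65-fold below it (-1.40 ± 0.28, adjusted p = 0.00234), and Cx32 null brain 2.25-fold (-1.17 ± 0.28, adjusted p = 0.00815). The calls in Cx43 heterozygous and Cx32 null brain passed under all alternatives.

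Clcn5, another endosomal exchanger of the CLC family, went the other way. Clcn5 measured 0.36, 0.60, 0.68 and 0.56 in Cx43 null, 0.99, 0.79, 1.04 and 0.89 in Cx43 heterozygous and 0.64, 1.12, 1.15 and 1.11 in Cx32 null brain, against -0.23, 0.04, 0.35 and 0.09 in wild-type brain. No mutant array reached down to the wild-type arrays. The rise was 0.86 ± 0.17 SE in Cx43 heterozygous (adjusted p = 0.00169) and 0.94 ± 0.17 in Cx32 null brain (adjusted p = 0.00162), while 0.49 ± 0.17 in Cx43 null brain did not pass (adjusted p = 0.0673). Its 2 spots both rose, by 0.41 and 1.38 in Cx43 heterozygous and by 0.63 and 1.31 in Cx32 null brain. With the better filled spot alone the call in Cx43 heterozygous brain was lost (0.41, adjusted p = 0.104). Clcn4 had changes of -0.58, 0.15 and -0.15, and Clcn7, the lysosomal member, had 0.17, 0.08 and -0.13, none past the threshold. The 3 spots of Clcn7 disagreed: in Cx32 null brain they changed by 0.67, -0.19 and -0.86.

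Potassium channel genes formed the largest family, with 19 tested members of 24, and moved both ways. Of all transcripts, 4.37%, 13.5% and 13.1% rose and 6.43%, 17.5% and 14.3% fell in Cx43 null, Cx43 heterozygous and Cx32 null brain. In Cx43 null brain 1 potassium channel gene rose, in Cx43 heterozygous brain 2 rose and 4 fell, and in Cx32 null brain 4 rose and 1 fell. Kcns3, a silent modifier subunit of delayed rectifier channels, was the only one past the threshold in every line. Kcns3 measured -0.66, -0.37, -0.08 and -0.28 in Cx43 null, -0.44, -0.35, -0.09 and 0.09 in Cx43 heterozygous and -0.19, -0.09, -0.16 and -0.09 in Cx32 null brain, against -1.34, -0.98, -1.04 and -0.61 in wild-type brain. Only Cx43 null replicate 1 fell below the highest wild-type array. The rise was 0.65 ± 0.18 SE in Cx43 null (adjusted p = 0.0365), 0.80 ± 0.18 in Cx43 heterozygous (adjusted p = 0.00445) and 0.86 ± 0.18 in Cx32 null brain (adjusted p = 0.00403). The calls in Cx43 heterozygous and Cx32 null brain passed under all alternatives.

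Kcnip3 encodes a calcium-binding protein that attaches to A-type potassium channels, and the pore of those channels comes from Kcnd2 and Kcnd3. Kcnip3 had log2 ratios of 0.49, 0.54, 0.81 and 0.61 in Cx43 heterozygous and -0.02, 0.49, 0.31 and 0.55 in Cx32 null brain, against -0.31, -0.02, -0.12 and -0.28 in wild-type brain. The Cx43 heterozygous arrays lay above the wild-type arrays and Cx32 null replicate 1 did not. Kcnip3 rose by 0.79 ± 0.16 SE (adjusted p = 0.00206) and 0.51 ± 0.16 (adjusted p = 0.0255) in these lines, and the second call was lost without Cx32 null replicate 2 or 4. Kcnd3 fell in Cx43 heterozygous brain by 0.81 ± 0.26 on the log2 scale (adjusted p = 0.0270), with overlapping groups. Without wild-type replicate 1, at 2.74, the change was -0.45 (adjusted p = 0.0477), and the call was lost without Cx43 heterozygous replicate 1, 3 or 4. Kcnd2 had changes of -0.34, -0.14 and -0.12, none past the threshold.

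Kcnk6, a background potassium channel gene, fell in Cx43 heterozygous and Cx32 null brain. Kcnk6 measured -1.12, -0.99, -0.83 and -0.95 in Cx43 heterozygous brain and -1.15, -0.81 and -1.35 on the 3 Cx32 null arrays with a value, against -0.33, -0.06, -0.31 and -0.12 in wild-type brain. Neither group overlapped the wild-type arrays. The change was -0.77 ± 0.20 SE (adjusted p = 0.00973) and -0.90 ± 0.22 (adjusted p = 0.00800), and both passed under every alternative. In Cx43 null brain it was -0.27 ± 0.20 (adjusted p = 0.371).

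Kcna3 and Kcnh2 fell in Cx43 heterozygous brain. Kcna3, a delayed rectifier known from lymphocytes and microglia as well as neurons, had 0.82, 1.12, 0.95 and 0.59 in Cx43 heterozygous brain, against 1.67, 1.39 and 2.16 on the 3 wild-type arrays with a value. The groups did not overlap, and Kcna3 fell 1.83-fold (-0.87 ± 0.22 SE, adjusted p = 0.00800). Kcnh2, the ether-a-go-go related channel whose loss prolongs the cardiac action potential, changed by -0.89 ± 0.25 (adjusted p = 0.0134), and by -0.61 without wild-type replicate 1 (adjusted p = 0.0316). In the other lines Kcna3 measured -0.17 and -0.44 and Kcnh2 -0.56 and -0.62, in Cx43 null and Cx32 null brain.

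Of the 4 tested subunit genes of calcium-activated potassium channels, 2 rose in Cx32 null brain, where 13.1% of all transcripts rose. Kcnmb4, the brain beta subunit of large-conductance channels, rose by 0.63 ± 0.21 SE (adjusted p = 0.0358), and Kcnn1, a small-conductance channel, by 0.65 ± 0.21 (adjusted p = 0.0332). Neither passed without Cx32 null replicate 2 or 3. Kcnmb4 was also lost without wild-type replicate 2 or 3, and Kcnn1 without Cx32 null replicate 4 or wild-type replicate 1. Kcnmb1, a beta subunit of smooth muscle, had a change of 0.33 (adjusted p = 0.225) and Kcnn4, an intermediate-conductance channel, -0.23 (adjusted p = 0.544). Kcnj16, an inward rectifier subunit of astrocytes and kidney, had the lowest mean ratio of the 49 tested members, -1.17, and its 2 spots gave changes of opposite sign in each line, such as -0.80 and 0.56 in Cx32 null brain. Kcnc1, a fast delayed rectifier of interneurons, measured 0.22, 0.24 and 0.18.

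**Figure D3:**
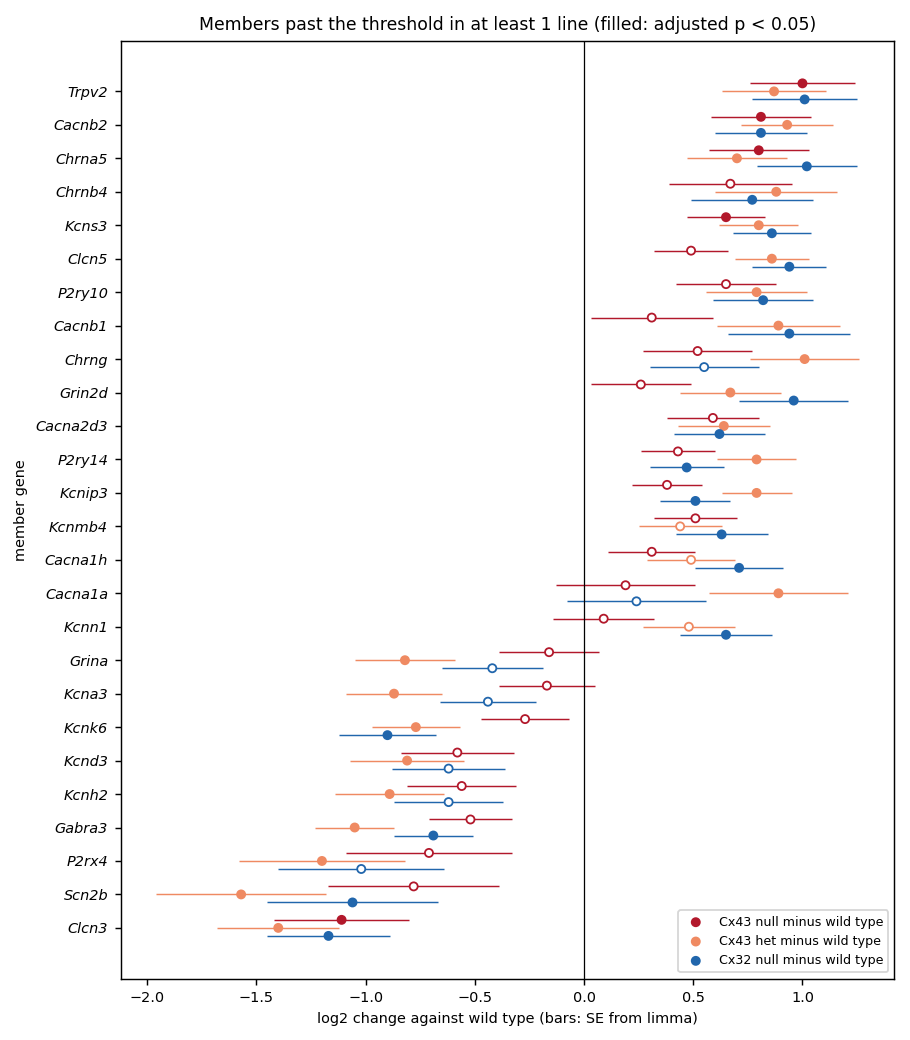
Log2 change against wild type (points, SE bars from limma) in Cx43 null, Cx43 heterozygous and Cx32 null brain for the 26 members past the threshold in at least 1 line; filled points passed. Trpv2, Cacnb2, Chrna5, Kcns3 and Clcn3 are filled in all 3 lines, each of which was compared with the same wild-type arrays. The share of all transcripts past the threshold in at least 1 line was not counted.

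Among the 3 tested ionotropic glutamate receptor genes, 1 rose and 1 fell in Cx43 heterozygous and 1 rose in Cx32 null brain. In Cx43 heterozygous brain 13.5% of all transcripts rose and 17.5% fell, and in Cx32 null brain 13.1% rose. Grin2d encodes an NMDA receptor subunit that is prominent in the immature brain. On the log2 scale the ratio was 1.45, 0.89, 1.15 and 0.99 in Cx43 heterozygous brain and 1.05, 2.10 and 1.07 on the 3 Cx32 null arrays with a value, against 0.10, 0.84, 0.28 and 0.56 in wild-type brain. Both groups cleared the wild-type arrays. The rise was 0.67 ± 0.23 SE (adjusted p = 0.0385) and 0.96 ± 0.25 (adjusted p = 0.0121). Without Cx32 null replicate 2 the second was 0.62 (adjusted p = 0.0737), and the first was lost without wild-type replicate 1 or 3 or without Cx43 heterozygous replicate 1, 3 or 4.

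Grina, named for an NMDA receptor but not a pore subunit, fell in Cx43 heterozygous brain. It had -0.21, -0.13, -0.09 and -0.26 there, against 0.45, 1.00, -0.03 and 1.18 in wild-type brain, without overlap. The change was -0.82 ± 0.23 SE (adjusted p = 0.0143). Of its 2 spots, 1 lies in a stretch of the table where wild-type replicate 3 is out of step with the other arrays, and without that spot the change was -1.12 (adjusted p = 0.00105). Gria3, an AMPA receptor subunit, had -0.36, -0.50 and -0.62 and did not pass.

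Gabra3, an alpha subunit of GABA-A receptors that is abundant before and around birth, was the only tested member of its family. Gabra3 measured 1.41, 1.77 and 1.79 on the 3 Cx43 null arrays with a value, 1.29, 1.02, 1.22 and 1.00 in Cx43 heterozygous and 1.54, 1.53, 1.68 and 1.19 in Cx32 null brain, against 2.24, 2.30, 1.82 and 2.34 in wild-type brain. All mutant arrays lay below all wild-type arrays. Cx43 heterozygous brain lay 2.06-fold below wild type (-1.05 ± 0.18 SE, adjusted p = 0.000708) and Cx32 null brain 1.62-fold (-0.69 ± 0.18, adjusted p = 0.00997, lost with quantile or cyclic loess scaling). It measured -0.52 ± 0.19 in Cx43 null brain (adjusted p = 0.0794).

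Scn2b encodes an auxiliary beta subunit of voltage-gated sodium channels. On the log2 scale Scn2b measured 0.12, -0.18, -0.07 and -0.32 in Cx43 null, -0.64, -0.66, -0.99 and -1.31 in Cx43 heterozygous and -1.06, -0.93, -0.92 and 1.34 in Cx32 null brain, against 0.77, 0.87, 0.84 and 0.19 in wild-type brain. Apart from Cx32 null replicate 4, every mutant array lay below every wild-type array. The fall in Cx43 heterozygous brain, 2.96-fold, was the largest among the members (-1.57 ± 0.39 SE, adjusted p = 0.00650), and it passed under all alternatives. In Cx32 null brain the change was -1.06 ± 0.39 (adjusted p = 0.0485), and -1.64 without replicate 4 (adjusted p = 0.000533). That call was lost without any other Cx32 null array and without wild-type replicate 1, 2 or 3. In Cx43 null brain the change was -0.78 ± 0.39 (adjusted p = 0.175). Scn3b, another beta subunit, had the highest mean ratio of the tested members, 2.72, and changes of -0.25, -0.24 and -0.30 that did not pass.

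Among the purine receptor genes were rises and a fall. P2ry10, a lipid-responsive receptor of lymphoid cells, rose by 0.79 ± 0.23 SE in Cx43 heterozygous (adjusted p = 0.0172) and 0.82 ± 0.23 in Cx32 null brain (adjusted p = 0.0172). These calls were lost without Cx43 heterozygous replicate 3 and without Cx32 null replicate 1 or 2. P2ry14, the receptor for UDP-glucose, rose by 0.79 ± 0.18 (adjusted p = 0.00493) and 0.47 ± 0.17 (adjusted p = 0.0461), the second lost on leaving out any single Cx32 null array or wild-type replicate 1, 2 or 3. P2rx4 encodes an ATP-gated channel found in neurons and microglia. On the log2 scale it measured -0.91, -1.22, -1.34 and -0.82 in Cx43 heterozygous brain, against -0.50, 1.89, -0.50 and -0.40 in wild-type brain, and the groups did not overlap. It fell 2.29-fold (-1.20 ± 0.38, adjusted p = 0.0252), but without wild-type replicate 2, the array at 1.89, the change was -0.61 (adjusted p = 0.0305). The call was lost without Cx43 heterozygous replicate 2 or 3.

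Markers of microglia moved both ways beside these genes. Of 6 tested microglial genes of 11 listed, 0, 3 and 1 rose and 2, 2 and 2 fell in Cx43 null, Cx43 heterozygous and Cx32 null brain. The shares of all transcripts were 4.37%, 13.5% and 13.1% for rises and 6.43%, 17.5% and 14.3% for falls. Array medians of the microglial genes were -1.54 to -0.80, -1.12 to -0.78 and -1.78 to -0.69 in those lines, against -1.44 to -0.62 in wild type. The part of microglia in the purine receptor changes was not tested. P2rx3, a channel of sensory neurons, had 0.30, 0.31 and 0.46, and the serotonin receptor gene Htr7 had 0.53, 0.35 and 0.49, none past the threshold.

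A member's direction went with its level in wild-type brain. The 4 members that rose in Cx43 null brain all had a wild-type mean below 0, as did 11 of the 14 in Cx43 heterozygous and 11 of the 15 in Cx32 null brain. Of the members that fell, 1 of 1, 8 of 9 and 3 of 4 had a wild-type mean above 0. The wild-type mean enters both quantities, so this is a description. The same counts were not made over all transcripts, so the pattern is not shown to be particular to the members. The SD over the members was 1.00 to 1.5 on the wild-type arrays, against 0.81 to 0.98 in Cx43 null, 0.81 to 1.05 in Cx43 heterozygous and 0.89 to 1.08 in Cx32 null brain; the part of this difference in the changes was not tested.

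**Figure D4:**
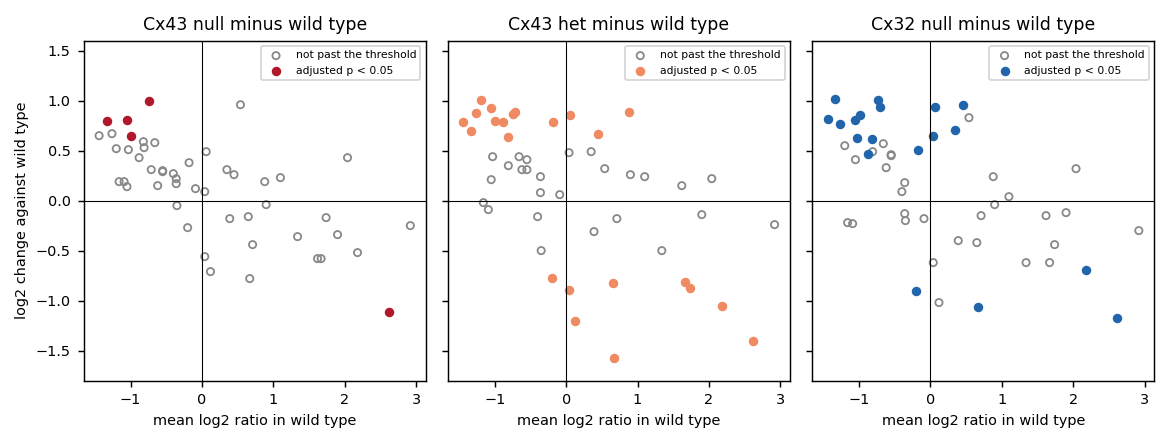
Log2 change against wild type (vertical axis) over the mean log2 ratio in wild type (horizontal axis) for the 49 members, 1 panel each for Cx43 null, Cx43 heterozygous and Cx32 null brain; filled points passed. Filled points above 0 lie mostly left of 0 on the horizontal axis (4 of 4, 11 of 14 and 11 of 15) and those below 0 mostly right of it, and the wild-type mean enters both axes. The same shares over all transcripts were not counted.

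Between the lines no member passed in limma. Cx43 null and Cx43 heterozygous brain differed in 0 members, where 1.46% of all transcripts passed. At an unadjusted p under 0.05 there were 10 members, beside 13.7% of all transcripts. The member nearest to passing was Kcna3, 0.71 higher in Cx43 null brain (95% interval 0.27 to 1.14, adjusted p = 0.106). Cx43 null and Cx32 null brain differed in 0 members, where 0.084% of all transcripts passed. Unadjusted, 7 members had a p under 0.05, beside 9.12% of all transcripts. Cx43 heterozygous and Cx32 null brain also differed in 0 members, where 1.23% of all transcripts passed, with 0 members unadjusted beside 11.4% of all transcripts. The 95% intervals of these differences, not adjusted for the number of transcripts, had a median half-width of 0.49, 0.49 and 0.47. Larger differences also failed the adjusted threshold. Clcn4 changed by -0.73 in Cx43 null against Cx43 heterozygous brain (limma adjusted p = 0.287). Grin2d changed by -0.71 in Cx43 null against Cx32 null brain (adjusted p = 0.355). Differences of this size between lines could go uncalled. A call in 1 line and not in another is therefore not a shown difference between them. With each pair of lines fitted alone, 0 members passed and 16, 6 and 5 had an unadjusted p under 0.05. Of all transcripts, 17.9%, 11.3% and 19.5% did so. With array weights 11, 5 and 1 members passed, and the share of all transcripts was not counted.

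Genes that work with these channels and receptors were taken from 4 lists. Beside their counts, 4.37%, 13.5% and 13.1% of all transcripts rose and 6.43%, 17.5% and 14.3% fell in Cx43 null, Cx43 heterozygous and Cx32 null brain. Of 13 tested synaptic scaffold and receptor partner genes of 34 listed, 1 rose in each line, and 0, 2 and 2 fell in Cx43 null, Cx43 heterozygous and Cx32 null brain. The gene that rose was Dlgap3, a postsynaptic scaffold, by 0.63 ± 0.17 SE (adjusted p = 0.0288), 0.90 ± 0.17 (adjusted p = 0.00121) and 1.05 ± 0.17 (adjusted p = 0.000809). Nsf, the ATPase that recycles the fusion machinery and handles AMPA receptors, and Homer2, a scaffold of metabotropic receptors, were the genes that fell. Nsf changed by -0.99 ± 0.35 (adjusted p = 0.0412) and -1.11 ± 0.35 (adjusted p = 0.0277), and Homer2 by -0.85 ± 0.21 (adjusted p = 0.00711) and -0.61 ± 0.21 (adjusted p = 0.0410), in Cx43 heterozygous and Cx32 null brain. With 1 array left out, Nsf passed in 1 of 8 fits for Cx43 heterozygous brain (only without wild-type replicate 1) and in 2 of 8 for Cx32 null brain (without Cx32 null replicate 2 or wild-type replicate 1). Homer2 in Cx32 null brain passed in 3 of 8, being lost without Cx32 null replicate 1, 3 or 4 or wild-type replicate 2 or 3, and measured -0.20 with quantile scaling (adjusted p = 0.522). With quantile scaling Homer2 was lost in Cx43 heterozygous brain too (-0.50, adjusted p = 0.0992). Of 10 tested transmitter genes of 29 listed, 2, 2 and 1 rose and 0, 1 and 1 fell. Slc32a1, the vesicular transporter for GABA and glycine, rose in all 3 lines, by 1.07 ± 0.21 (adjusted p = 0.0105), 0.98 ± 0.21 (adjusted p = 0.00315) and 0.83 ± 0.21 (adjusted p = 0.00984). These calls were lost in all 3 lines with 1 spot per gene, where the changes were 0.30 (adjusted p = 0.258), 0.33 (adjusted p = 0.164) and 0.37 (adjusted p = 0.126), and also when only spots with a value on all 16 arrays were kept.

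Of 11 tested genes for ion gradients of 24 listed, 0, 0 and 1 rose and 1, 3 and 1 fell. Atp1b1, a beta subunit of the sodium pump, changed by -0.87 ± 0.25 SE in Cx43 null (adjusted p = 0.0365), -1.56 ± 0.25 in Cx43 heterozygous (adjusted p = 0.000432) and -1.31 ± 0.25 in Cx32 null brain (adjusted p = 0.00212). Of 8 tested calcium release and calmodulin genes of 17 listed, 0, 0 and 1 rose and 1 fell in each line. Stim1, the sensor of calcium in the endoplasmic reticulum, was the gene that fell, with changes of -0.69 ± 0.21 (adjusted p = 0.0464), -1.12 ± 0.21 (adjusted p = 0.00132) and -0.64 ± 0.21 (adjusted p = 0.0344). In Cx43 null brain the calls of Dlgap3, Atp1b1 and Stim1 were each lost without Cx43 null replicate 2, 3 or 4 and without wild-type replicate 1 or 2, and that of Atp1b1 also without wild-type replicate 3. The call of Stim1 in Cx32 null brain was lost without Cx32 null replicate 2, 3 or 4 or wild-type replicate 1 or 2.

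Of the 49 tested members, 23 passed in no line, and the share of all transcripts that passed in none was not counted. The other 15 members were not tested, because at least 1 group had fewer than 3 values: Cacna1d, Cacna1g, Chrna1, Chrnb1, Clcn2, Kcna7, Kcne3, Kcnj15, Kcnk7, Kcnq5, P2rx1, Trpm2, Trpm3, Trpm4 and Trpv4. Of these, Kcnj15, Kcnk7 and Trpm4 had no value on any array. A gap in the values was more common in some groups: Cacna1d, Cacna1g and Kcnq5 had a value on 4 Cx43 null arrays and on 1 Cx43 heterozygous array, against 4 wild-type arrays.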

How the data were processed

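RNA of 16 mouse brain samples, each from 1 animal or a pool, was measured on 16 2-colour cDNA arrays, 4 per genotype, each beside a common reference. The labels give Cy3 for brain cDNA and Cy5 for the reference; the labels of wild-type replicates 3 and 4 name only the reference's dye, and for wild-type replicate 3 the title was followed where its channel label has another number. The authors deposited 1 log ratio for each spot of an array, here read as log2; the authors' base, numerator and normalization within an array are not given in the sources used here. No intensities were used, so signal over background is not known, and the number of arrays limits the precision.

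Spots were named from the platform annotation, with symbols updated through the gene identifier. Arrays were centred on their median (-0.13 to 0.28 before). Spots with at least 3 of 4 values in each group were kept (19951, of which 62 belong to members), and spots of 1 gene were averaged. All 16 arrays were fitted together in limma 3.58.1 (R 4.3.3, lmFit and eBayes, 2-sided), with Benjamini-Hochberg adjustment over 14292 transcripts. Each transcript had 1 spread shared by all groups, although wild-type arrays varied more than the others. Missing values were left missing. The fit was tested on simulated data with independent noise of the same size in all groups. That setting lacks the wider spread of the wild-type arrays, so it does not show how the fit behaves with it.

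Named are members that passed, up to 8 rises and 8 falls per line, up to 2 each way per family, the highest and lowest mean ratio of a family, fixed members, and up to 2 each way per partner list; other members were named after their values were seen. The members and lists were chosen with earlier results of these data known.

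The table is laid out in 48 blocks of 598 spots, and in 4 of them a wild-type array is out of step with the others (r under 0.5). Alternatives were 3 other scalings, 2 other filters on missing values, 1 spot per gene, the blocks left out, array weights, a replicate block, the compared groups alone, and each array left out.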

Additional observations from a re-analysis of the deposited data

Results flagged for a closer look

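In 12 of 178 groups of 4 values, 1 array stood apart from its group by Dixon's criterion (the gap to the nearest array over the range of the group); chance gives about 1 group in 20, or 5%. On wild-type replicate 1 this held for 3 members: Trpv2 at -1.46, Kcnd2 at 2.65 and Cacnb1 at -1.58. On wild-type replicate 2 P2rx4 stood at 1.89, and on wild-type replicate 4 Scn2b stood at 0.19. Scn2b stood at 1.34 on Cx32 null replicate 4. In Cx32 null brain Clcn5 was also apart on replicate 1, at 0.64, and P2rx3 on replicate 2, at 0.15. In Cx43 heterozygous brain Trpc4ap was apart on replicate 1, at 1.32, Gria3 on replicate 2, at 0.68, and Cacng1, a subunit of the muscle calcium channel, on replicate 3, at 0.33. In Cx43 null brain Clcn7 was apart on replicate 3, at -0.03.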

How the results depend on the processing

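All calls of members against wild type, 5 in Cx43 null, 23 in Cx43 heterozygous and 19 in Cx32 null brain, kept their sign under all alternatives tested. Of them 0, 12 and 8 passed under every alternative in which the member was tested. The share of all called transcripts that did so was not counted. A member with no spot valued on all 16 arrays was not tested under that filter. The number of members past the threshold in Cx43 null brain was 1 with quantile scaling, 2 with cyclic loess, 1 of 27 tested with a value on all 16 arrays, 20 with array weights and 0 with the 2 groups fitted alone (12 at an unadjusted p under 0.05), and 0 to 10 with 1 array left out. Of all transcripts, 8.07% passed in Cx43 null brain with quantile scaling, 9.12% with cyclic loess and 12.8% with a value on all 16 arrays. With the 2 groups alone 0% passed and 21.4% had an unadjusted p under 0.05. The share with array weights was not counted. With a value on all 16 arrays 12 members passed in Cx43 heterozygous and 8 in Cx32 null brain, where fewer members were tested. Of all transcripts, 33.8% and 30.9% passed there. In Cx32 null brain 9 members passed with the 2 groups fitted alone, beside 15.8% of all transcripts, and 9 to 22 with 1 array left out. In Cx43 heterozygous brain leaving 1 array out gave 17 to 23. Quantile or cyclic loess scaling lost Cacnb2, Chrna5, Clcn3 and Kcns3 in Cx43 null, Chrna5 and Kcnd3 in Cx43 heterozygous and Cacna2d3, Chrnb4, Gabra3, P2ry14, Kcnmb4 and Scn2b in Cx32 null brain. With 1 spot per gene Trpv2 in Cx43 null, Chrng and Clcn5 in Cx43 heterozygous and P2ry14 in Cx32 null brain were lost. Between lines the number of members was 11, 5 and 1 with array weights (Cx43 null minus Cx43 heterozygous, Cx43 null minus Cx32 null, Cx43 heterozygous minus Cx32 null) and 0 to 0 with 1 array left out. The causes were not tested. Clcn7 in Cx32 null brain turned to 0.67 (adjusted p = 0.0232) with 1 spot per gene, since its spots disagree. Equal replicate numbers did not pair samples: of 24 pairs, 4 correlated over 0.1 (-0.26 to 0.23). With the replicate number as a block, 3 members passed in Cx43 null, 23 in Cx43 heterozygous and 16 in Cx32 null brain. The share of all transcripts that passed with this block was not counted. The median change of the members moved to 0.41 in Cx43 heterozygous brain with the values as deposited, and to 0.41 in Cx32 null brain with 1 spot per gene. Signal over background, which limits spots near the median, is not known.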
